A study of Arabidopsis thaliana with 6 samples.

Results

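Transcripts for the protein core of the spliceosome were measured in whole seedlings of Arabidopsis thaliana (accession Col-0), 3 wild type samples and 3 samples of cdkf;1-2. The members were 54 genes listed in advance by locus or symbol: those for Sm and LSm proteins, for proteins of the U1, U2 and U4/U6.U5 particles, for SF3a and SF3b, for the PRP19 complex and for factors of the second splicing step. Of these, 28 had a probe set that the array's annotation assigned to 1 gene only, out of 13356 genes so named, and each of the 28 had 1 such probe set. The other 26 were not analysed here; 4 of them had only probe sets shared with another gene.

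The mutant carries a T-DNA insertion in the gene for CDKF;1, a plant cyclin-dependent kinase that the study names as a kinase of serine 7 in the RNA polymerase II carboxy-terminal repeats. Its own transcript had no named probe set and could not serve as a check of the genotype labels. All seedlings were 7 days old, counted from germination in one label and from sowing in another. They grew on solid medium with 0.5% sucrose at 22 °C under an 8 h day and were harvested 4 h into the light. The labels call the samples biological replicates; they do not say how many seedlings or which batches made up a sample.

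The spliceosome removes introns from pre-mRNA. Its snRNPs are small nuclear RNAs bound to proteins: 7 Sm proteins form a ring on the U1, U2, U4 and U5 RNAs, and a ring of LSm proteins sits on U6. U1 recognises the 5′ splice site and U2, with SF3a and SF3b, the branch site. The U4/U6.U5 tri-snRNP then joins, and the PRP19 complex takes part in activation. Splicing is coupled to transcription partly through the repeats that CDKF;1 phosphorylates. Many of these proteins are encoded in Arabidopsis by pairs of closely related genes. The roles given below for genes known only by a locus are those of the yeast or human homologs.

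The deposited values were linear signals on unequal scales, with array medians of 85.4 to 104 in wild type and of 64.4, 89.6 and 115 in mutant replicates 1, 2 and 3. They were quantile-normalized, and differences are given as log2(signal + 16), mutant minus wild type, which understates changes of dim transcripts. The limma fit had 3 samples per group and 22746 probe sets, and a gene was called where its Benjamini-Hochberg adjusted p over all of them was below 0.05. Mutant replicate 1 stood apart from the other mutant samples: it correlated with them at r = 0.973 and 0.972 across probe sets, while replicates 2 and 3 correlated at 0.987. Results that rest on it are given with and without it. The 3′ to 5′ signal ratio of ubiquitin was 1.52 in this sample against 1.39 and 1.38 in the other mutant samples, that of actin 2.64 against 2.88 and 2.91, and wild type ran from 1.60 to 1.74 and from 2.05 to 2.48. Other control values separated the genotypes: the 25S ribosomal RNA signal over the array median was 44.8 to 53.5 in wild type and 85.5 to 108 in the mutant, and the GAPDH ratio 0.887 to 0.960 and 1.00 to 1.07. The part of RNA integrity or labelling in the results below was not tested.

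None of the 28 spliceosome genes was called in either direction with all 6 samples, while limma called 14.4% of all probe sets, 6.94% higher and 7.42% lower. At an unadjusted p below 0.05, 1 gene was higher and 2 were lower in the mutant, against 29.5% of all probe sets, 14.0% higher and 15.6% lower. The median log2 difference over the 28 genes was 0.04, beside -0.01 over all probe sets, and single genes ran from -0.50 to 0.74. The 2 genotypes did not overlap for 3 genes that were higher and 2 that were lower in the mutant, against 33.9% of all probe sets, 15.8% higher and 18.1% lower.

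A missed threshold does not show equal levels, so the intervals are given as well. The 95% confidence interval of the difference lay within 2-fold in both directions for 21 of the 28 genes and within 1.5-fold for 12. All 15 genes outside the Sm and LSm families had intervals within 2-fold, whereas 6 of the 13 Sm and LSm genes did. The standard error of the difference was also larger in these families, with a median of 0.29 against 0.16 in the other complexes and 0.17 over all probe sets.

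**Figure D1:**
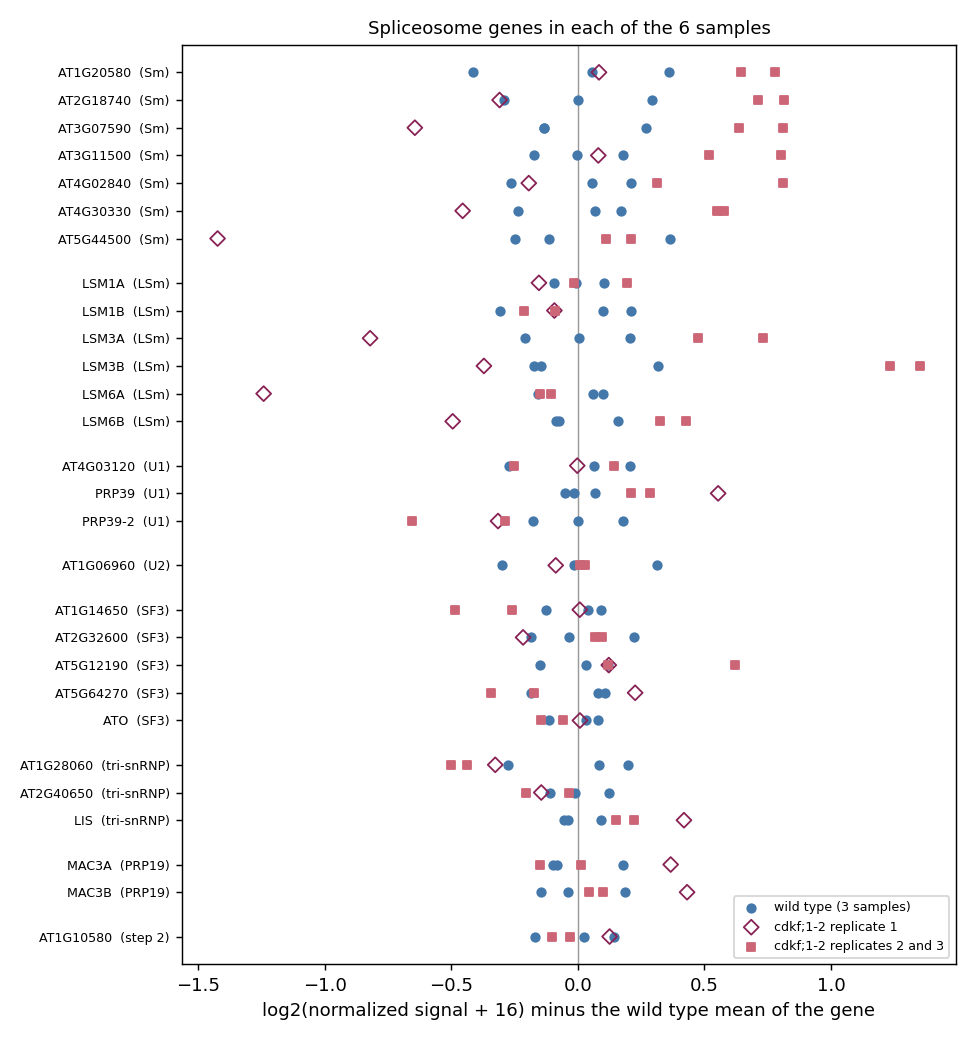
Level of each of the 28 measured spliceosome genes in each sample, as log2(normalized signal + 16) minus the wild type mean of that gene (x axis), grouped by complex (y axis). Circles are the 3 wild type samples, squares mutant replicates 2 and 3, and open diamonds mutant replicate 1, which lies below the other mutant samples for 12 of the 13 Sm and LSm genes.

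Without mutant replicate 1 the median standard error of the Sm and LSm genes was 0.17, against 0.29 with it. Its signal was below both other mutant samples for 7 of 7 Sm genes and 5 of 6 LSm genes, with a median deviation from their mean of -1.02 on the log2 scale. In the other complexes it was below both for 2 of 15 genes and above both for 9, with a median deviation of 0.16. Over all probe sets, replicate 1 was below both for 37.2%, with a median deviation of 0.03. The median of the 13 Sm and LSm genes minus that of the other 15, taken within each array after centring each gene on its wild type mean, was -0.21, 0.05 and 0.13 in wild type replicates 1 to 3. In the mutant it was -0.38, 0.58 and 0.76, so mutant replicate 1 lay below and the other mutant samples above all wild type samples. Replicate 1 was thus the lowest of its group in both genotypes. For each Sm gene the signal rose from replicate 1 to 3 in wild type as in the mutant. The Sm medians of the wild type replicates were -0.25, -0.0004 and 0.27. The labels do not pair same-numbered samples, and a source shared by them was not tested.

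**Figure D2:**
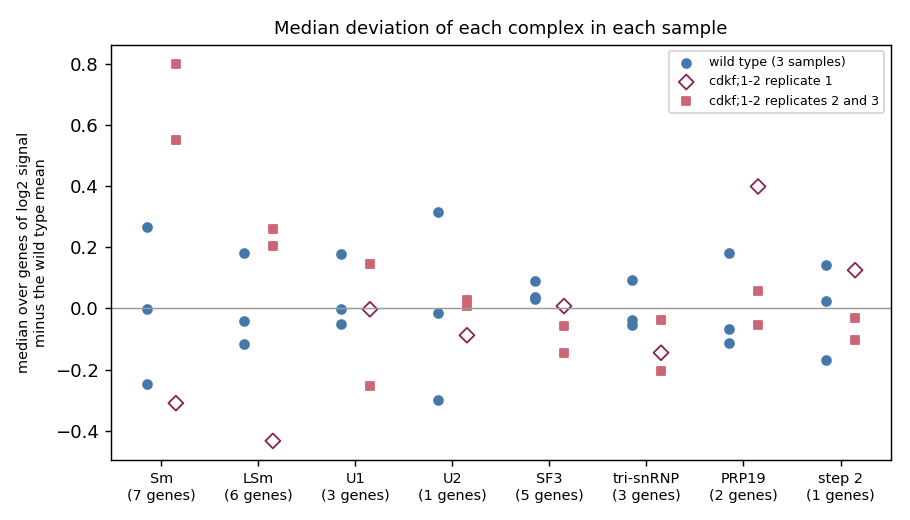
Median over the measured genes of each complex of the log2 signal minus the wild type mean (y axis), for each sample. For the 7 Sm genes the mutant samples sit at -0.31, 0.55 and 0.80, on either side of the wild type samples at -0.25 to 0.27, while the mutant samples of SF3 lie between -0.15 and 0.01.

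The Sm proteins form the ring shared by most spliceosomal snRNPs, and 7 of their 13 listed genes were measured. With all samples 6 of the 7 were higher and 1 was lower in the mutant, none was called, and the median difference was 0.31. AT3G11500, which encodes an SmG protein, had normalized signals of 304, 345 and 393 in wild type and 366, 502 and 614 in the mutant. Mutant replicate 1 fell inside the wild type range and the other mutant samples above it, and the log2 difference of 0.47 (SE 0.20, 95% interval -0.005 to 0.94) was not called (limma adjusted p = 0.173).

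AT1G20580, an SmD3 gene, showed the same arrangement, with signals of 255, 359 and 448 in wild type and 367, 548 and 605 in the mutant (log2 difference 0.50, SE 0.25, limma adjusted p = 0.235). The SmE gene AT2G18740 had signals of 129, 162 and 202 in wild type and 127, 276 and 297 in the mutant, where replicate 1 lay just below the lowest wild type sample. For AT3G07590, an SmD1 gene, the wild type signals were 83.3, 83.4 and 115 and the mutant signals 53.7, 153 and 175. Here replicate 1 lay below and the other mutant samples above the whole wild type range. AT4G02840, also SmD1, and AT4G30330, also SmE, differed by 0.31 and 0.22 (SE 0.26 and 0.29). AT5G44500, an SmB gene, was the 1 that was lower (log2 -0.37, SE 0.42), with signals of 59.7, 67.0 and 99.5 in wild type and 17.5, 81.1 and 87.9 in the mutant. Its low mean came from replicate 1, since the other mutant samples lay inside the wild type range.

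LSm proteins form 2 rings: one with LSM8 that binds U6 in the nucleus, and one with LSM1 that acts in cytoplasmic mRNA decapping. Of 11 listed genes 6 were measured, 4 of them higher and 2 lower in the mutant, with a median difference of 0.05 and no call. LSM3B, whose product belongs to both rings, had the largest difference of the 28 genes (log2 0.74, SE 0.44, 95% interval -0.29 to 1.76, limma adjusted p = 0.317). Its signals were 147, 150 and 212 in wild type and 126, 415 and 452 in the mutant, so mutant replicate 1 was below and the others above all wild type samples.

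LSM3A followed the same order at 83.2, 99.3 and 116 in wild type and 49.0, 143 and 175 in the mutant (log2 0.13, SE 0.38). LSM6B had wild type signals of 155, 153 and 185 and mutant signals of 112, 210 and 226 (log2 0.09, SE 0.25). LSM6A had the most negative difference of the 28 (log2 -0.50, SE 0.30, limma adjusted p = 0.321), with signals of 131, 156 and 160 in wild type and 53.6, 132 and 137 in the mutant. Apart from replicate 1, its mutant samples lay within the wild type range. The genes of the decapping ring's own subunit had small differences: LSM1A differed by 0.01 (SE 0.14, 95% interval -0.31 to 0.33) and LSM1B by -0.13 (SE 0.16). For LSM1B, mutant replicate 1 was not below the others, at 177 against 178 and 162.

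Without mutant replicate 1, 4 of the 13 Sm and LSm genes were called higher and 0 lower, against 9.13% of all probe sets called higher and 18.1% called in either direction in that fit, and 0 of the other 15 genes were called. LSM3B rose 2.47-fold (log2 1.30, SE 0.18, limma adjusted p = 0.00721). AT2G18740 rose 1.71-fold (log2 0.77, SE 0.19, limma adjusted p = 0.0394). AT3G07590 rose 1.67-fold and AT3G11500 rose 1.58-fold (log2 0.74 and 0.66, limma adjusted p = 0.0326 and 0.0377). The second measured gene of these families did not pass: LSM3A had a log2 difference of 0.61, AT4G30330 of 0.57 and AT4G02840 of 0.57 (limma adjusted p = 0.0538, 0.0534 and 0.117). The other SmG gene was not measured.

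In the same 5 samples the Sm median went from 0.31 to 0.66 and the LSm median from 0.05 to 0.23, while the median over all probe sets was -0.02. The genotypes then did not overlap for 9 of the 13 genes, all higher, against 23.6% of all probe sets. For the other 15 genes they did not overlap for 3 that were higher and 3 that were lower, the latter against 26.6% of all probe sets. Replicate 1 was below both other mutant samples for 12 of these 13 genes, against 37.2% of all probe sets. Leaving it out therefore had to raise their mutant means, and the shares over all probe sets are not a like measure for their calls. Mutant replicates 2 and 3 alone carry the mutant side of these values, and the labels give no reason to set replicate 1 aside. Wild type replicate 1, the lowest wild type sample for each Sm gene, stayed in this fit. AT5G44500 also changed sign without it (log2 0.16). With all 6 samples, 3 of the 13 genes were called higher when limma weighted the arrays, LSM3B, AT1G20580 and AT3G11500 (adjusted p = 0.0217, 0.0499 and 0.0282). Leaving out another mutant sample lowered the values: the Sm median was 0.25 without replicate 2 and 0.059 without replicate 3, the LSm median was -0.065 and -0.086, and LSM3B differed by 0.49 and 0.42, with no gene called.

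**Figure D3:**
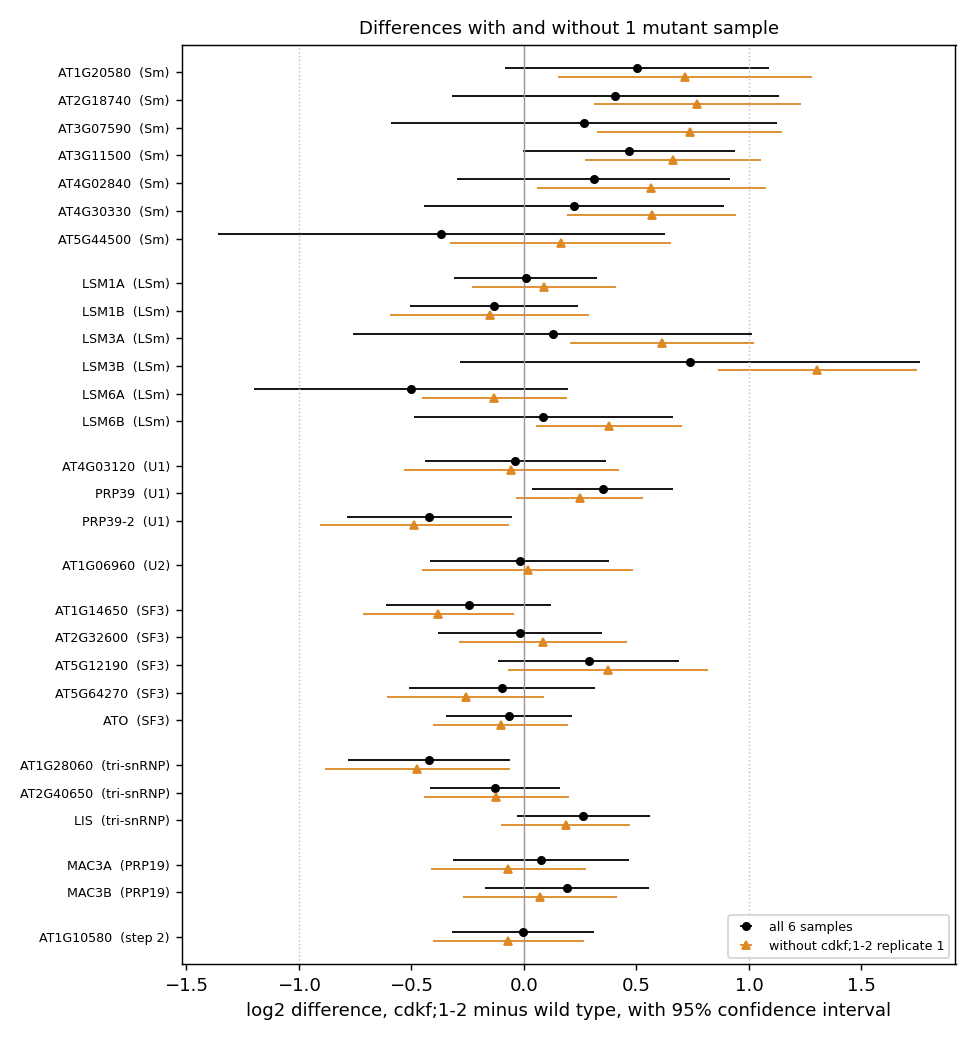
Log2 difference, cdkf;1-2 minus wild type, of each measured gene with its 95% confidence interval (x axis), from all 6 samples (circles) and without mutant replicate 1 (triangles); dotted lines mark a 2-fold difference. With all samples the 7 intervals that reach past 2-fold all belong to Sm and LSm genes, and for LSM3B the value moves from 0.74 to 1.30.

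The U1 particle was represented by 3 of 4 listed genes, including the PRP39 pair, whose differences had opposite signs, as did those of the LSM6 and LSM1 pairs. PRP39 and PRP39-2 encode proteins related to a U1 component of yeast. PRP39 had signals of 408, 375 and 385 in wild type and 579, 477 and 453 in the mutant. All mutant samples were above all wild type samples, and the difference was 0.35 (SE 0.13, 95% interval 0.04 to 0.66, limma adjusted p = 0.131). It was called only when arrays were scaled on the hybridisation spikes (log2 0.65, adjusted p = 0.0398), a scaling that shifted the median of all probe sets by 0.18.

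PRP39-2 had signals of 56.5, 48.2 and 66.0 in wild type and 42.3, 43.5 and 30.1 in the mutant. Here all mutant samples were below all wild type samples (log2 -0.42, SE 0.16, 95% interval -0.79 to -0.05, limma adjusted p = 0.123). For both genes replicate 1 did not decide the direction, with differences of 0.25 and -0.49 without it. AT4G03120 encodes U1C, which contacts the paired 5′ splice site, and differed by -0.04 (SE 0.17).

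For U2, 1 of 3 genes was measured. AT1G06960, of the U2B″ type, which binds a stem-loop of U2 RNA, differed by -0.02 (SE 0.17), and its mutant signals of 115 to 125 lay inside the wild type range of 96.9 to 157. SF3a and SF3b hold U2 at the branch site, and 5 of their 8 genes were measured, with a median of -0.07. AT5G64270, the large SF3b subunit that is mutated in human cancers, differed by -0.10 (SE 0.18), with 505, 515 and 418 in wild type and 561, 422 and 373 in the mutant, so the groups overlapped.

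Among the 3 SF3a subunits, ATO (ATROPOS) differed by -0.07 (SE 0.12) and AT2G32600 by -0.02 (SE 0.16). AT1G14650 differed by -0.25 (SE 0.16, limma adjusted p = 0.355), with signals of 99.5, 86.9 and 104 in wild type and 97.0, 64.4 and 78.0 in the mutant. AT5G12190, the small SF3b protein at the branch site, was higher in every mutant sample, at 203, 203 and 294 against 166, 190 and 203 in wild type. Its difference of 0.29 (SE 0.17, limma adjusted p = 0.323) rested on narrow gaps, since the lowest mutant signal of 202.9 stood beside a highest wild type signal of 202.6.

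The tri-snRNP was represented by 3 of 7 genes, of which 1 was higher and 2 were lower. AT1G28060, a PRP3 homolog also known as RDM16 for its part in RNA-directed DNA methylation, had the smallest unadjusted p of the 28 (log2 -0.42, SE 0.15, 95% interval -0.78 to -0.06, limma adjusted p = 0.117). Its signals were 280, 197 and 257 in wild type and 190, 166 and 174 in the mutant, without overlap, and the difference was -0.47 without mutant replicate 1. LIS (LACHESIS), a PRP4 homolog that keeps neighbouring cells of the female gametophyte from taking on egg cell fate, went the other way, at 185, 183 and 204 in wild type and 260, 224 and 213 in the mutant (log2 0.26, SE 0.13, limma adjusted p = 0.217). PRP3 and PRP4 bind each other on the U4/U6 RNAs in yeast and human. AT2G40650, of the PRP38 type, differed by -0.13 (SE 0.12).

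MAC3A and MAC3B encode the PRP19 ubiquitin ligases of Arabidopsis, which are also needed for plant immunity. MAC3A differed by 0.08 and MAC3B by 0.19 (SE 0.17 and 0.16), and for both genes mutant replicate 1 was the highest of the 6 samples, at 587 and 1647. Without it the differences were -0.07 and 0.07. AT1G10580, of the PRP17 type that acts at the second step, differed by -0.004 (SE 0.14), with a 95% interval of -0.32 to 0.31.

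Paralogous genes were also compared within each array, since a scaling factor common to an array nearly cancels in their ratio. Quantile normalization is not such a factor and can change the ratio, and the added 16 weighs on dim genes. The ratio shows unequal change and not which gene changed, and its level, which depends on the probes, is not interpreted. Both genes were measured in 7 pairs. An exact permutation test of 3 samples against 3 cannot give a two-sided p below 0.1, so no pair could pass 0.05, and over the 7 pairs that p adjusts to 0.14. In 5 pairs the genotypes did not overlap. The 33.9% without overlap over all probe sets is for single levels and is not a like measure, and no share was computed for ratios.

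The widest shift was in the PRP39 pair. Its log2 ratio of PRP39 to PRP39-2 was 2.55, 2.61 and 2.29 in wild type and 3.35, 3.05 and 3.35 in the mutant. The mean moved from 2.48 ± 0.17 to 3.25 ± 0.17 (SD, n = 3), a shift of 0.77 (exact permutation p = 0.1, adjusted 0.14). Over the 12 alternatives that gave a value the shift stayed between 0.55 and 0.92. PRP39-2 was the dimmest of the 28 genes, and the pair had no value without the 40% or 60% dimmest probe sets.

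The LSM3 and LSM6 pairs also shifted, and mutant replicate 1 moved with its group here. The log2 ratio of LSM3A to LSM3B was -0.71, -0.52 and -0.79 in wild type and -1.12, -1.43 and -1.30 in the mutant, a shift of -0.61 (exact permutation p = 0.1, adjusted 0.14, n = 3 per group). That of LSM6A to LSM6B was -0.22, 0.02 and -0.19 in wild type and -0.88, -0.61 and -0.66 in the mutant, a shift of -0.59 with the same p. In each family the A gene was therefore lower relative to the B gene in all 3 mutant samples than in any wild type sample, and without mutant replicate 1 the shifts were -0.69 and -0.51.

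Shifts were smaller in the remaining pairs. For the SmE genes AT2G18740 and AT4G30330 the ratio moved by 0.18 and for MAC3A and MAC3B by -0.11, in both without overlap (exact permutation p = 0.1, adjusted 0.14, n = 3 per group). The closest samples of the 2 genotypes were 0.13 and 0.15 for SmE and -1.46 and -1.46 for MAC3. The LSM1 pair moved by 0.14 and the SmD1 pair by -0.04, with overlapping groups (exact permutation p = 0.6 and 0.9, n = 3 per group). On the deposited values, without quantile normalization, the MAC3 shift was -0.24 and the LSM1 shift 0.28.

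**Figure D4:**
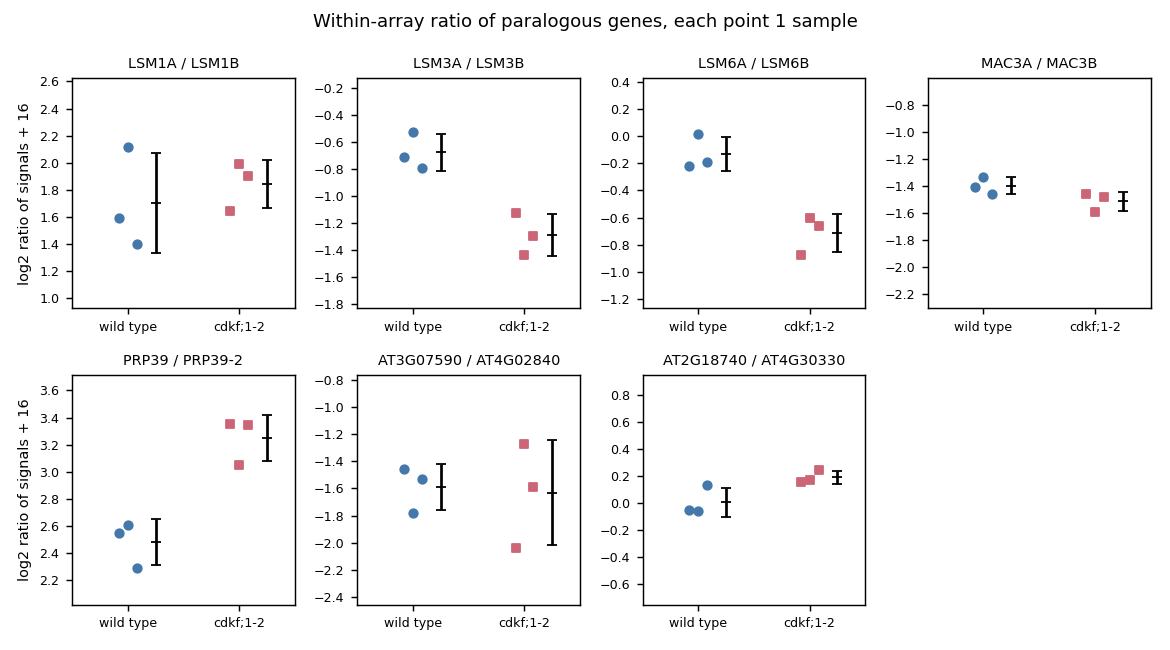
Log2 ratio of normalized signals + 16 of the first to the second gene of 7 paralog pairs (y axis, the same span in each panel), 1 point per sample with the mean and SD of 3 samples beside it. The genotypes separate most in PRP39 over PRP39-2, with a shift of 0.77, and in the LSM3 and LSM6 pairs, with shifts of -0.61 and -0.59.

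Other genes of RNA processing were read from 6 lists of 69 genes, 14 of which had a named probe set; all 20 listed genes for SR proteins lacked one. Of the 14, 1 fell and 0 rose, near the 7.42% of all probe sets called lower. This was AT2G47250, a DEAH-box helicase of the PRP43 type, which releases the lariat and takes spliceosomes apart in yeast. It fell from signals of 475, 434 and 367 to 223, 215 and 181 (log2 -0.99, SE 0.15, limma adjusted p = 0.0057). The related AT3G62310 had a difference of -0.59 (SE 0.17, limma adjusted p = 0.0562), also without overlap, and fell without mutant replicate 1, when 2 of the 14 were called, against 18.1% of all probe sets.

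The U2AF genes, whose products bind the 3′ splice site before U2, did not pass: ATU2AF35A, U2AF35B and ATU2AF65A differed by 0.24, 0.10 and -0.11 (SE 0.18, 0.13 and 0.19). AT1G54380, a gene for Sm ring assembly, differed by 0.05 (SE 0.15), and AT1G79090, of the decapping activator PAT1 type that works with the LSM1 ring, by 0.20 (SE 0.26). Y14, of the exon junction complex, differed by 0.24 (SE 0.12, limma adjusted p = 0.244), and the cleavage and polyadenylation genes FY and AT5G60940 by 0.14 and -0.24 (SE 0.17 and 0.13).

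Whole seedlings mix organs, and fewer cells of a type cannot be told apart from less RNA per cell. The marker counts that follow stand beside 7.42% of all probe sets called lower and 14.4% called in either direction. Among markers of dividing cells, 4 of 18 were measured and 0 were called, and their summed signal was 594 to 746 in wild type and 574 to 674 in the mutant. The sum joins opposite differences. PRL was lower (log2 -0.48, limma adjusted p = 0.12) and AUR1 higher (log2 0.38, limma adjusted p = 0.0705), both without overlap, against 33.9% of all probe sets. HTR12 and AUR2 differed by 0.10 and -0.27, with overlap. Of 5 root hair markers 2 were measured and 1 fell, EXPA18, with sums of 210 to 225 in wild type and 56.2 to 126 in the mutant, the lowest in mutant replicate 1. Of 6 photosynthesis markers 4 were measured and 2 fell, PRK and PSAN, with sums of 33499 to 33979 in wild type and 26105 to 27279 in the mutant. EXPA7, the other measured root hair marker, was not called (log2 -1.42, limma adjusted p = 0.062). Its signal was near the floor in mutant replicate 1, at 4.4, against 39.8 and 53.7 in the other mutant samples and 94.1 to 101 in wild type. The part of these markers in the spliceosome values was not tested.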

How the data were processed

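Each of the 6 samples had 1 column of linear signal intensity per probe set, as deposited. Per the submitters' processing notes GCOS was used; for its version, settings and scaling nothing was given. Signals of all 22810 probe sets were quantile-normalized, 16 was added and log2 taken. After the 64 control probe sets were left out, 22746 remained, and limma 3.58.1 (R 4.3.3) was run on them with genotype as the single term (4 residual degrees of freedom) and two-sided tests. There was no filter on dim probe sets and no detection call was used. The number of arrays limits the precision. Gene names came from the array's annotation, updated through the RefSeq gene table of TAIR10.1: 13513 probe sets had 1 gene, 503 several and 8730 none. No coordinates are given, because the build used for the probe sets is unknown here.

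The members, lists, main scaling and tests were chosen with earlier results of these data known. Every measured member may be named; per-sample signals are given for those with the smallest p in each complex, opposed pairs and genes called, and of other lists up to 4 genes called. Members given with signals beyond this rule (AT1G20580, AT2G18740, AT3G07590, AT5G44500, LSM3A, AT5G64270, AT1G14650, LIS, MAC3A) and the genes of other lists that were not called were chosen after their values were seen. Paralog ratios were compared by exact permutation. Because samples of one genotype may share a culture, p-values measure the spread between these samples.

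The fit was also run on simulated data, with variances drawn from the prior of the fit to these data. Changes were set in 200 probe sets from the brighter part of the array. At 1.5-fold 1 of 67 was recovered, at 2-fold 36 of 67 and at 4-fold 61 of 66, with 7 false calls. Replicate numbers are shared by the genotypes. Deviations from the group means of same-numbered samples correlated at 0.30, 0.01 and 0.15 across probe sets, and nothing in the labels pairs them, so the block was used as an alternative only.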

Additional observations from a re-analysis of the deposited data

How the results depend on the processing

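The count of 0 spliceosome genes called lower held under the 18 alternatives. The count called higher became 1 under hybridisation spike scaling (PRP39), 3 with array weights (LSM3B, AT1G20580 and AT3G11500) and 1 with the replicate block (AT1G20580, adjusted p = 0.0444); the numbers share no stated pairing, and not every wild type sample correlated best with its own number. Leaving out single samples gave 0 to 4. Of the 14 other RNA processing genes, 1 was called lower, against 0 on the deposited values, 2 without the 40% or 60% dimmest probe sets, with the trended and robust prior, with a pseudocount of 64, with array weights and with the replicate block, and 1 to 2 when single samples were left out. Of all probe sets 3267 were called, against 328 on the deposited values, 2122 with a pseudocount of 1 and 5612 with array weights, and 1496 to 4107 without single samples. The share of calls that were higher was 48.3%, against 45.7% on the deposited values, 58.5% with median centring, 40.5% with trimmed-mean scaling and 80.4% with spike scaling, where the median of all probe sets was 0.17.

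Under spike scaling the medians were 0.61 for Sm genes (0.60 with array weights, against 0.31), 0.34 for LSm genes, 0.21 for U1, 0.21 for SF3, 0.059 for the tri-snRNP and 0.34 for all members. The tri-snRNP median of -0.13 was -0.23 on the deposited values and -0.26 with trimmed-mean scaling, where that of SF3 was -0.14. Without the 60% dimmest probe sets 19 members were left, with a median of 0.19.

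Signs turned for uncalled genes. Under spike scaling they were LSM1B (0.076), AT4G03120 (0.21), AT1G06960 (0.17), AT5G64270 (0.21), ATO (0.12), AT2G32600 (0.25), AT2G40650 (0.059) and AT1G10580 (0.20). With array weights they were AT5G44500 (0.048), AT2G32600 (0.069), MAC3A (-0.0044) and AT1G10580 (0.0046). AT2G32600 was 0.031 with median centring and LSM6B -0.017 with trimmed-mean scaling.

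Without single samples the lowest and highest differences were -0.17 and 0.61 for LSM3A, -0.083 and 0.38 for LSM6B, -0.083 and 0.090 for LSM1A, -0.64 and 0.16 for AT5G44500, -0.0053 and 0.74 for AT3G07590, -0.18 and 0.069 for AT4G03120, -0.17 and 0.14 for AT1G06960, -0.26 and 0.025 for AT5G64270, -0.11 and 0.094 for AT2G32600, -0.068 and 0.19 for MAC3A and -0.088 and 0.068 for AT1G10580. The pair ratio shifts ran from -0.012 to 0.35 for LSM1 and from -0.22 to 0.17 for SmD1. The cause of these changes was not tested. Pair ratios were not refitted for settings that change only the model, and the mean of probe sets equals the main value for genes with 1 probe set.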
